A study of Homo sapiens with 6 samples.

Results

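Of the 57820 gene rows measured in this RNA sequencing series, 9 encode matrix metalloproteases (MMP1, MMP2, MMP3, MMP9, MMP10 and MMP14) or their tissue inhibitors (TIMP1, TIMP2 and TIMP3), and these were followed through all 6 libraries. They were taken by gene symbol, and the family was chosen by the log2 differences of MMP1 and TIMP3 between cells without EGF and controls, which were known beforehand. That contrast is therefore given below as a description of the 9 genes, with no p-value for them and nothing read from whether they pass a threshold. The cells were hTert-HME1, a human mammary epithelial line immortalised with telomerase, transfected with siRNA, allowed to recover and then grown in mammary epithelial medium. The libraries labelled BRCA2 siRNA without EGF (siRNA BRCA2-2, passage 6, replicates A and B) had medium lacking epidermal growth factor (EGF), the ligand of the receptor EGFR. The library labelled as BRCA2 siRNA with EGF (siRNA BRCA2-2, passage 4, replicate P4) and the control siRNA libraries with EGF (siRNA control-1, passage 4 replicate P4, passage 6 replicates A and B) had complete medium. All 6 libraries come from 1 cell line. Control siRNA without EGF was not analysed here, so in the comparison of cells without EGF with controls the siRNA and the medium differ together.

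Matrix metalloproteases are zinc-dependent proteases that cut collagens, laminins, fibronectin and other parts of the extracellular matrix. Most are secreted as latent proenzymes and gain activity when a propeptide is removed, and TIMPs block them by binding the active site. In epithelia these enzymes take part in the turnover of the basement membrane, in cell migration and in wound closure. EGF receptor signalling is known in keratinocytes and other epithelial cells to raise transcription of several of them through AP-1 and ETS factors.

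Values are the authors' normalised log2 values, and a fold is 2 raised to a difference of them. The targeted gene BRCA2 stood at 11.15 and 10.89 in the libraries without EGF, at 10.88 in the library labelled as BRCA2 siRNA with EGF, and at 10.19, 11.25 and 11.24 in control P4, A and B. At passage 4 the library labelled for BRCA2 siRNA had more of this RNA than the control, so the gene does not bear that label out. The difference in BRCA2 between the libraries without EGF and all controls did not pass either (limma adjusted p = 0.881). Every value resting on the passage 4 libraries holds by label only. A mean of at least 10 on the linear scale was the filter, which 14763 genes passed. Their differences from controls A and B had an SD of 0.290 and 0.321 for the passage 4 library labelled as BRCA2 siRNA, and of 0.485 and 0.509 for the passage 4 control. The sequencing depth of the libraries is unknown. Of the 9 genes 8 passed the filter. MMP9 had a mean linear value of 7.38 and was too low to read, and MMP10 passed with a mean of only 19.9.

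The sequence upstream of the start is shown for the 4 members of 9 that were matched in the promoter table. It sets a promoter with exact matches to the TATA box and the AP-1 motif beside ones without such matches. Each run is the 250 bases before the annotated start, 5′ to 3′ on the gene's own strand, from RefSeq on GRCh38.p14. Capitals mark every match on either strand to TGANTCA (the AP-1 motif), TATAAA (the TATA box) or GGGCGG (the GC box, written CCGCCC on the other strand). MMP10 lies at chr11:102780629-102780878 on the minus strand, MMP14 at chr14:22836335-22836584 on the plus strand, TIMP1 at chrX:47582186-47582435 on the plus strand and TIMP3 at chr22:32801455-32801704 on the plus strand.
MMP10: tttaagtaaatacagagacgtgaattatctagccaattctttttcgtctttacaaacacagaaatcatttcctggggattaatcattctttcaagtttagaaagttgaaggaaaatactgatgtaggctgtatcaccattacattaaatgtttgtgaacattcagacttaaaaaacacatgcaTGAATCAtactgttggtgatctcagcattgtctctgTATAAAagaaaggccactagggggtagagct
MMP14: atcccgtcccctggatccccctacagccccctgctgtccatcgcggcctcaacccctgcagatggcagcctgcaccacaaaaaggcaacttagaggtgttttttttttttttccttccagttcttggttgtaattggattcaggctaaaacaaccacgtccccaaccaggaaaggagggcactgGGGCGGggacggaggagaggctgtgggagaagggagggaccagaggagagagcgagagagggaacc
TIMP1: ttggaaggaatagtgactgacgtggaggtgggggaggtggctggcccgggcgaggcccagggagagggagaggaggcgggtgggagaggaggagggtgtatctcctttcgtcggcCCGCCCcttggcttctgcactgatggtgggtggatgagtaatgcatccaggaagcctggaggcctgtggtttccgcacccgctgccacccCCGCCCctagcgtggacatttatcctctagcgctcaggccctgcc
TIMP3: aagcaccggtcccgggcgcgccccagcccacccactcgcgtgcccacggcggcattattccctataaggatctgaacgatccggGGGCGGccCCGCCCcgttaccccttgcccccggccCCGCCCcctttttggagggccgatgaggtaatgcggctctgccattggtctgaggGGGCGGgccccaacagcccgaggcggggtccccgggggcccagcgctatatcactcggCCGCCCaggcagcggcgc

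The MMP10 promoter held the TATAAA letters 31 to 26 bases before the start and 1 AP-1 match, TGAATCA, 67 to 61 bases before it, and its GC content was 34.4%. The other 3 promoters held no exact match to either motif. Letters that vary from the motifs were not searched for, such as tgagtaa in the TIMP1 run, so a site of that kind is not excluded. TIMP3 had 5 GC boxes and a GC content of 72.4%, TIMP1 had 2 and 64.8%, and MMP14 had 1 and 56.8%. Over the 35116 promoters of the table, 6.57% held TGANTCA, 10.7% TATAAA and 42.6% GGGCGG, and the median GC content was 58.0%. The short ETS core AGGAA, on either strand, occurred 2 times each in the MMP10, MMP14 and TIMP1 windows and 0 times in that of TIMP3, against 56.8% of all promoters with at least 1. These matches are descriptions of letters and no measure of binding.

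In cells without EGF the collagenase MMP1 was low and the inhibitor TIMP3 high, while MMP14, the most abundant of these proteases, and the inhibitor TIMP2 differed little from controls. MMP1 was 7.14-fold lower and TIMP3 4.14-fold higher than in controls. MMP10 was 1.84-fold lower and MMP2 1.44-fold higher. Of all tested genes 0.989% passed a limma adjusted p of 0.05, 0.853% as higher and 0.135% as lower. Since the values of MMP1 and TIMP3 chose the family, no count of members is set against these shares. Over all tested genes 146 passed, and leaving out 1 library gave 0 without replicate A or replicate B of the libraries without EGF, 951 without control P4, and 29 or 38 when control A or control B was dropped. The median difference of the 8 was -0.26, against -0.03 over all tested genes.

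**Figure D1:**
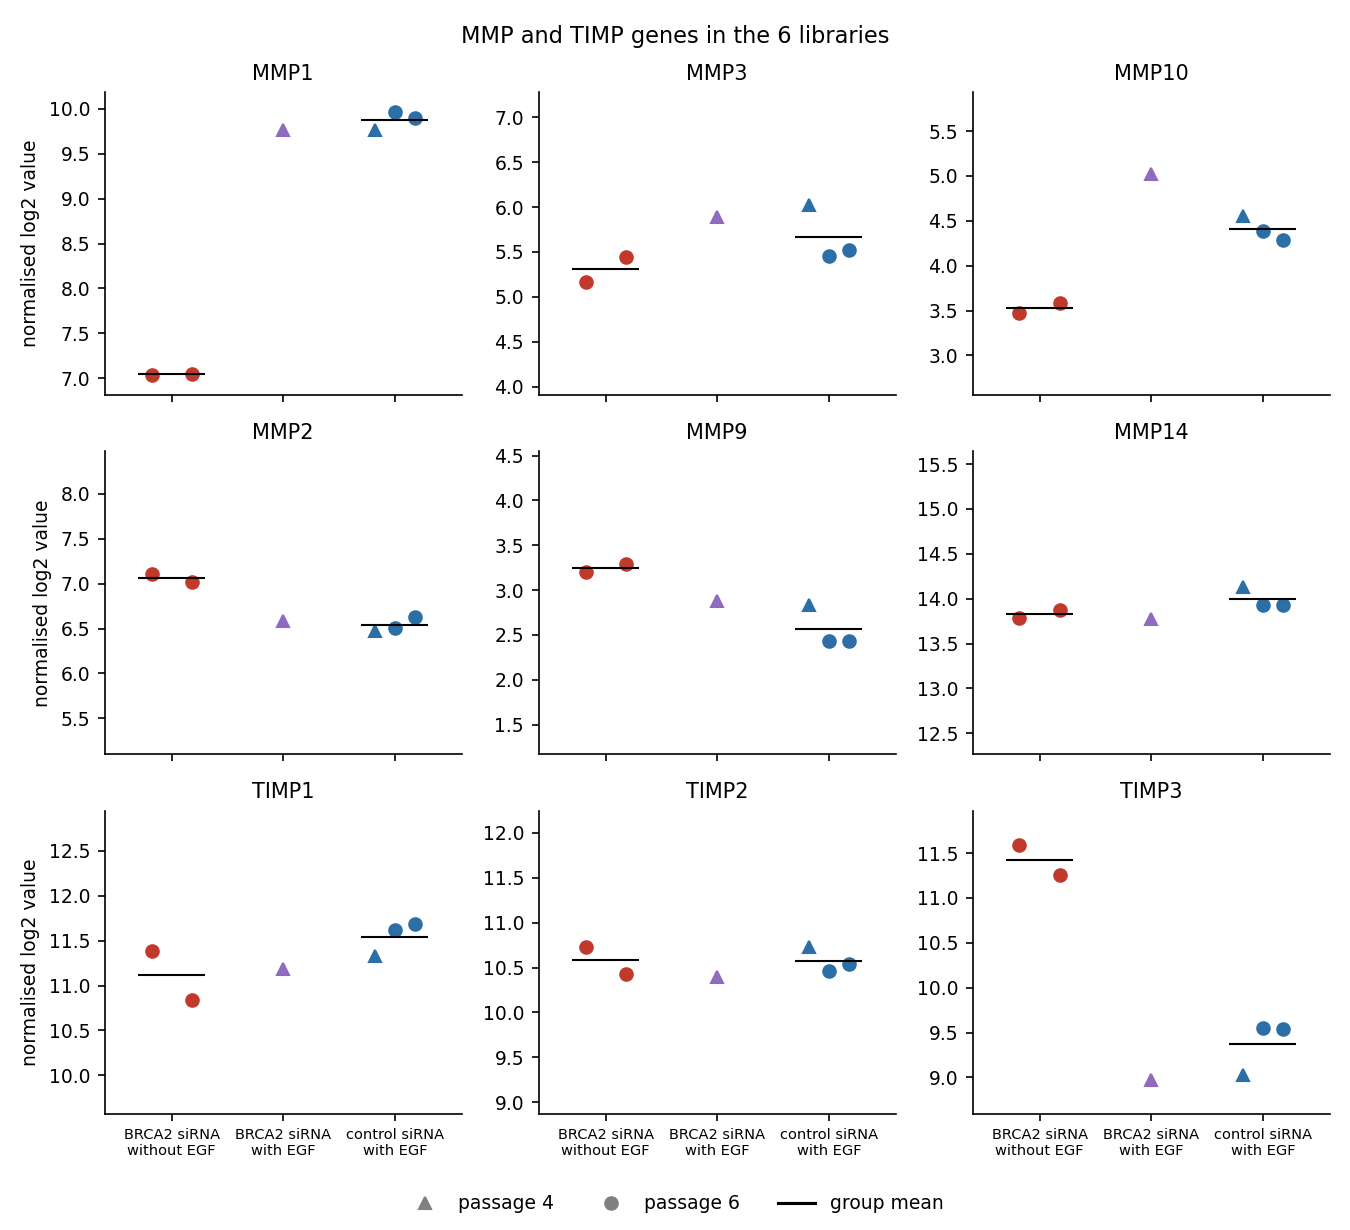
Normalised log2 value of the 9 genes (vertical axis, each panel spanning the same range) in each library, by group, with triangles for passage 4, circles for passage 6 and black lines for group means. MMP1 at 7.03 and 7.05 without EGF lies apart from 9.76 or more elsewhere, and TIMP3 at 11.25 and 11.59 lies above 9.55 or less elsewhere.

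MMP1 (ENSG00000196611) encodes the interstitial collagenase, which cuts the triple helix of fibrillar collagens. Its log2 value was 7.03 and 7.05 without EGF, 9.76 in the library labelled as BRCA2 siRNA with EGF, and 9.76, 9.97 and 9.90 in control P4, A and B. The libraries with EGF stayed within 0.21 of each other whatever their siRNA label or passage, and both libraries without EGF lay far below them. The difference without EGF over controls was -2.84 ± 0.13 (limma standard error, n = 2 and 3), the most negative of the 14763 tested genes. Against the passage 6 controls alone it was -2.89 ± 0.08. In bulk RNA fewer cells expressing a gene and less of its RNA per cell cannot be told apart.

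MMP10 (ENSG00000166670), stromelysin-2, and MMP3 (ENSG00000149968), stromelysin-1, cut a broad range of matrix proteins and can activate other proenzymes, the MMP1 proenzyme among them. MMP10 was at 3.48 and 3.58 without EGF, 5.02 in the library labelled as BRCA2 siRNA with EGF, and 4.55, 4.39 and 4.29 in control P4, A and B. The groups did not overlap, and the highest value was that of the library labelled as BRCA2 siRNA with EGF. Without EGF the difference from controls was -0.88 ± 0.14 (limma standard error), ranking 143 from the lowest of all tested genes, and it was -0.81 ± 0.12 against the passage 6 controls alone.

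MMP3 was at 5.17 and 5.45 without EGF, 5.89 in the library labelled as BRCA2 siRNA with EGF, and 6.02, 5.46 and 5.52 in control P4, A and B. It was higher in both passage 4 libraries than in any passage 6 library. The difference without EGF from controls, -0.36 ± 0.22, became -0.18 ± 0.14 against the passage 6 controls alone. Transcripts of MMP3 and MMP10 share 59 stretches of 50 bases, 2.88% of those of MMP3 and 3.36% of those of MMP10, so a small part of their reads could have been assigned to either.

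The gelatinases MMP2 and MMP9 cut denatured collagen and collagen IV. MMP2 (ENSG00000087245) was at 7.10 and 7.02 without EGF, 6.59 in the library labelled as BRCA2 siRNA with EGF, and 6.47, 6.51 and 6.63 in control P4, A and B. The libraries without EGF lay above all 4 others, which lay within 0.16 of each other. The difference from controls was 0.53 ± 0.14 (limma standard error), and 0.50 ± 0.11 at passage 6 alone.

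MMP9 (ENSG00000100985) was at 3.20 and 3.29 without EGF, 2.88 in the library labelled as BRCA2 siRNA with EGF, and 2.83, 2.44 and 2.43 in control P4, A and B. These values lay below the filter and were not tested, and 18.4% of its exon bases overlap those of the antisense gene SLC12A5-AS1. Whether the counting used strand is not given in the sources used here.

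MMP14 (ENSG00000157227) encodes a membrane-anchored protease that cuts collagen at the cell surface and activates the MMP2 proenzyme, with TIMP2 serving as the bridge between them. It was at 13.79 and 13.88 without EGF, 13.78 in the library labelled as BRCA2 siRNA with EGF, and 14.13, 13.93 and 13.93 in control P4, A and B. All 6 values lay within 0.36 of each other. Its difference without EGF from controls was -0.17 ± 0.13 (limma standard error), and -0.10 ± 0.07 at passage 6 alone. The libraries without EGF and the controls did not overlap for MMP14 and MMP3, but by only 0.05 and 0.01. Of all tested genes 42.0% did not overlap. MMP1 and TIMP3 chose the family by this contrast, so no count of members is set against that share.

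TIMP3 (ENSG00000100234) encodes the inhibitor that binds to the matrix and blocks ADAM17 and aggrecanases as well as MMPs. Its log2 value was 11.59 and 11.25 without EGF, 8.98 in the library labelled as BRCA2 siRNA with EGF, and 9.03, 9.55 and 9.54 in control P4, A and B. Both libraries without EGF stood at least 1.70 above all others, and the lowest pair was that of passage 4. The difference without EGF from controls was 2.05 ± 0.21 (limma standard error), ranking 30 from the highest, and it was 1.88 ± 0.13, or 3.68-fold, against the passage 6 controls alone. TIMP3 lies within SYN3 on the opposite strand with 0 shared exon bases, and SYN3 had a mean linear value of 0.829.

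TIMP1 (ENSG00000102265) encodes a soluble inhibitor that acts poorly on MMP14. It was at 11.39 and 10.84 without EGF, 11.18 in the library labelled as BRCA2 siRNA with EGF, and 11.33, 11.62 and 11.69 in control P4, A and B. Its 2 libraries without EGF differed from each other by 0.56, and their mean differed from controls by -0.43 ± 0.21 (limma standard error), and the groups overlapped. That difference was -0.71 without replicate A and -0.15 without replicate B of the libraries without EGF.

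TIMP2 (ENSG00000035862) encodes a soluble inhibitor that also takes part in MMP2 activation. It was at 10.73 and 10.43 without EGF, 10.39 in the library labelled as BRCA2 siRNA with EGF, and 10.73, 10.46 and 10.54 in control P4, A and B. The groups overlapped, and the difference of 0.00 ± 0.15 was smaller than the spread of either group. A small part of its reads could belong to CEP295NL on the same strand, with which it shares 2.68% of its stretches of 50 bases, and MMP2 shares 2.57% with AC007336.3.

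Levels of different genes were compared per kb of exon, as the log2 value less the log2 of the gene's exon length in kb. In controls the order was MMP14 at 11.84 ± 0.12, TIMP1 at 10.92 ± 0.19, MMP1 at 8.90 ± 0.11, TIMP2 at 8.08 ± 0.14, TIMP3 at 7.17 ± 0.30, MMP3 at 4.63 ± 0.31, MMP2 at 4.23 ± 0.09, MMP10 at 3.60 ± 0.13 and MMP9 at 1.34 ± 0.23 (SD, n = 3). MMP3 and MMP2 differed from each other by about their spread, and the other neighbours by more. Without EGF the level of TIMP3, 9.22 ± 0.24, came before TIMP2 at 8.09 ± 0.21 and MMP1 at 6.06 ± 0.01, and MMP2 at 4.76 ± 0.06 came before MMP3 at 4.27 ± 0.20 (SD, n = 2). MMP14 and TIMP1 still led at 11.67 ± 0.06 and 10.49 ± 0.39, and MMP10 and MMP9 came last at 2.72 ± 0.08 and 2.02 ± 0.06. The library labelled as BRCA2 siRNA with EGF had the same order as the controls, with MMP1 at 8.78, TIMP2 at 7.90, TIMP3 at 6.77, and MMP3, MMP2 and MMP10 at 4.86, 4.28 and 4.21.

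**Figure D2:**
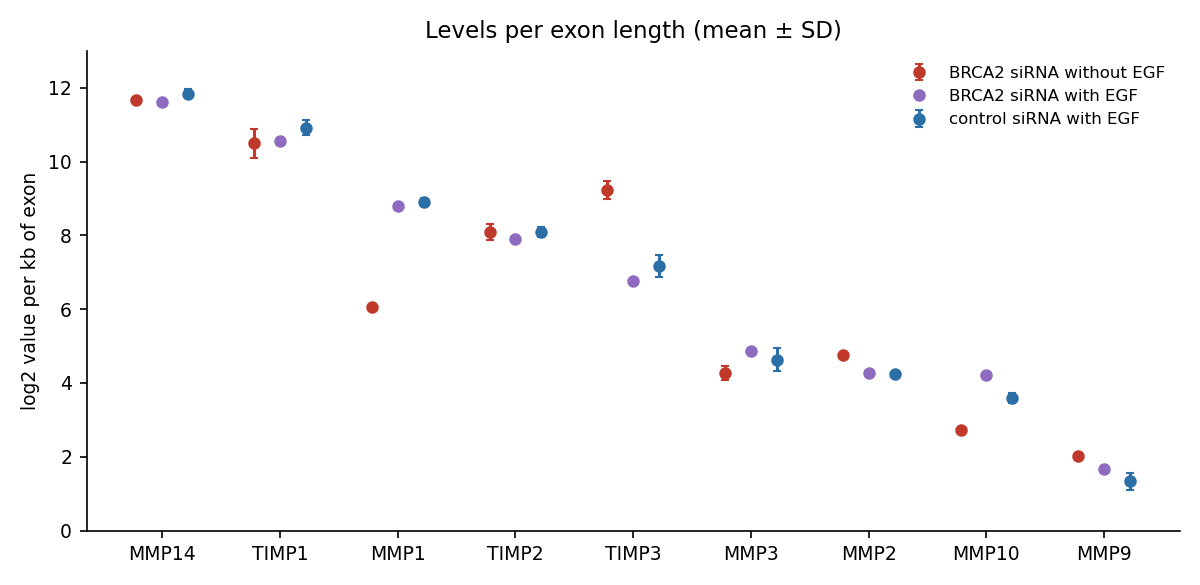
Level per kb of exon on the log2 scale (vertical axis, mean ± SD, no SD for the single library labelled as BRCA2 siRNA with EGF) of the 9 genes, ordered by their level in controls. TIMP3 and MMP1 exchange places around TIMP2 without EGF, while MMP14 and TIMP1 lead in all 3 groups.

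The balance of a protease and its inhibitor was read within each library as a log2 ratio of the levels per kb, in which a scaling factor common to a library cancels. MMP1 over TIMP3 was -3.34 and -2.98 without EGF, 2.01 in the library labelled as BRCA2 siRNA with EGF, and 1.96, 1.64 and 1.58 in control P4, A and B. The level of TIMP3 thus exceeded that of MMP1 in both libraries without EGF, and the reverse held in all 4 with EGF. The mean log2 ratio differed from controls by -4.89, or 29.5-fold, and by -4.77, or 27.3-fold, against the passage 6 controls alone.

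MMP1 over TIMP2 was -2.18 and -1.87 without EGF, 0.88 in the library labelled as BRCA2 siRNA with EGF, and 0.55, 1.02 and 0.87 in control P4, A and B. Its sign per kb thus turned as well. Before division by exon length MMP1 lay below TIMP2 in all 6 libraries, so that sign rests on the lengths used. MMP1 over TIMP1 was negative in all 6 libraries, at -4.71 and -4.14 without EGF, -1.78 in the library labelled as BRCA2 siRNA with EGF, and between -2.14 and -1.92 in the controls. MMP14 over TIMP3 stayed positive everywhere but was 4.65-fold lower without EGF than in controls. MMP14 over TIMP2, the pair that takes part in MMP2 activation, lay between 3.40 and 3.81 in all 6 libraries. These ratios restate the values that chose MMP1 and TIMP3 and carry no test.

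**Figure D3:**
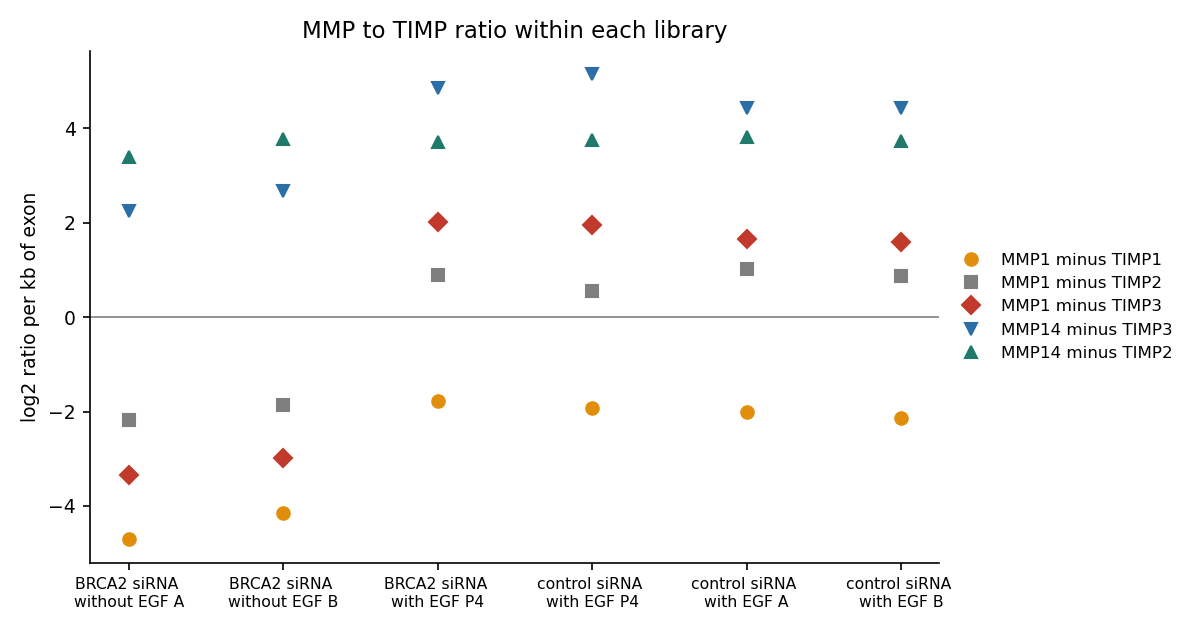
Log2 ratio of protease to inhibitor RNA per kb of exon (vertical axis) for 5 pairs in each library. The points of MMP1 minus TIMP3 lie at -3.34 and -2.98 without EGF and between 1.58 and 2.01 with EGF, while MMP14 minus TIMP2 stays between 3.40 and 3.81.

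As a share of the summed TIMP RNA per kb, TIMP3 made up 24.7% and 27.0% without EGF, 5.89% in the library labelled as BRCA2 siRNA with EGF, and 5.46%, 6.63% and 6.31% in control P4, A and B. The summed TIMP level per kb itself overlapped between groups, at 2714 and 1960 without EGF, 1858 in the library labelled as BRCA2 siRNA with EGF, and 2080, 2452 and 2566 in control P4, A and B. The share of TIMP3 differed where the sum did not separate the groups, and it restates the TIMP3 values that chose the family. Among the collagenase and stromelysins together, MMP1 made up 73.6% and 70.5% without EGF, 90.3% in the library labelled as BRCA2 siRNA with EGF, and 90.7%, 93.8% and 93.5% in control P4, A and B. That share likewise restates the MMP1 values that chose the family, and neither share carries a test.

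MMP1, MMP3 and MMP10 are neighbours in a cluster of MMP genes on chromosome 11, in the order MMP7, MMP20, MMP27, MMP8, MMP10, MMP1, MMP3, MMP12 and MMP13 of the RefSeq annotation. The 4 that were tested had differences below 0 without EGF against controls, at -0.88 for MMP10, -2.84 for MMP1, -0.36 for MMP3 and -0.46 for MMP13, another collagenase. Over all tested genes the median was -0.03, so differences below 0 were common and nothing is read from the shared sign. MMP1 helped to choose the family, and MMP13 was named after its value was seen. MMP3 was at -0.18 ± 0.14 against the passage 6 controls alone. MMP10 and MMP13 had low mean linear values, 19.9 and 12.5. MMP7, MMP20 and MMP8 were below the filter, MMP27 was listed at 0 in all 6 libraries, and MMP12 was not matched to a row. MMP1 shares 150 exon bases, 7.61% of its exon length, with the pseudogene WTAPP1 on the opposite strand, which had a mean linear value of 1.01.

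The libraries without EGF were next set against the library labelled as BRCA2 siRNA with EGF (n = 2 and 1), where the siRNA label is shared and medium and passage differ together. MMP1 fell by 2.72 ± 0.17 on the log2 scale, or 6.58-fold (limma standard error, adjusted p = 0.0155 by the Benjamini-Hochberg method over all tested genes). It was the 1 member of 8 to pass, where 0.203% of all tested genes passed, 0.176% as higher and 0.0271% as lower. This value shares the libraries without EGF with the comparison against controls and is not independent of it. The count over all genes, 30, was 0 without either replicate without EGF, 2404 without control P4, and 9 or 10 when control A or control B was dropped. The MMP1 adjusted p was 0.287 without replicate A of the libraries without EGF and 0.263 without replicate B, both fits in which a lone library stood for that group, and its difference stayed between -2.89 and -2.71 over 13 alternatives.

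TIMP3 differed by 2.45 ± 0.28 on the log2 scale with an adjusted p of 0.0565, and MMP10 by -1.49 ± 0.19 with an adjusted p of 0.0652 (limma), so neither passed. With the passage difference of the controls taken off, TIMP3 was at 1.93 (adjusted p = 0.0357), MMP10 at -1.28 (adjusted p = 0.0481) and MMP1 at -2.89 (adjusted p = 0.0255, limma with groups split by passage), in a fit where 3.85% of all tested genes passed. Over all alternatives the limma adjusted p ran from 0.0125 to 0.466 for TIMP3 and from 0.0160 to 0.466 for MMP10, with the lowest values without control P4, which is in neither group, and the highest without replicate B of the libraries without EGF. The other tested members had adjusted p from 0.297 for MMP2, at a difference of 0.48 ± 0.19, to 0.918 for TIMP1, at -0.07 ± 0.28. MMP3 lay at -0.58 ± 0.30, TIMP2 at 0.19 ± 0.20 and MMP14 at 0.06 ± 0.18. Leaving out replicate B of the libraries without EGF turned the TIMP1 difference to 0.21.

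The library labelled as BRCA2 siRNA with EGF was set against control siRNA with EGF (n = 1 and 3) to compare the siRNAs in complete medium. None of the 8 tested members passed, as for all 14763 genes, of which 0% were called by limma and 412 had an unadjusted p below 0.05. MMP10 was the 1 member among those 412, at 0.61 ± 0.18 (limma, unadjusted p = 0.0156, adjusted p = 0.9997). MMP1 differed by -0.12 ± 0.16 and TIMP3 by -0.40 ± 0.27. Against the passage 4 control alone MMP1 was at 0.00 ± 0.11, TIMP3 at -0.06 ± 0.19 and MMP10 at 0.47 ± 0.17 (limma adjusted p = 0.195), while MMP3 changed sign, at 0.23 ± 0.28 over all controls and -0.13 ± 0.20 at passage 4. The other members lay at 0.05 ± 0.18 for MMP2, -0.22 ± 0.17 for MMP14, -0.36 ± 0.26 for TIMP1 and -0.18 ± 0.19 for TIMP2. The spread of a single library is assumed to be that of the other groups, and a difference that did not pass does not show that the siRNA left these genes alike.

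Passage 6 controls were compared with the passage 4 control (n = 2 and 1). None of the 8 tested members passed, where 20.1% of all tested genes did, 7.71% as higher and 12.4% as lower. The nearest were TIMP3, at 0.51 ± 0.16 (limma adjusted p = 0.0817), and MMP3, at -0.53 ± 0.17 (limma adjusted p = 0.0859). MMP1 differed by 0.17 ± 0.10, TIMP1 by 0.33 ± 0.24, MMP2 by 0.10 ± 0.13, MMP14 by -0.20 ± 0.09, TIMP2 by -0.23 ± 0.15 and MMP10 by -0.21 ± 0.14. The 20.1% rests on the closeness of controls A and B, whose differences had an SD of 0.119 over tested genes against 0.308 for the pair without EGF. These calls did not hold without control A, without control B or with both averaged. Without replicate A or B of the libraries without EGF most tested genes were called, so members that passed there do not stand out.

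**Figure D4:**
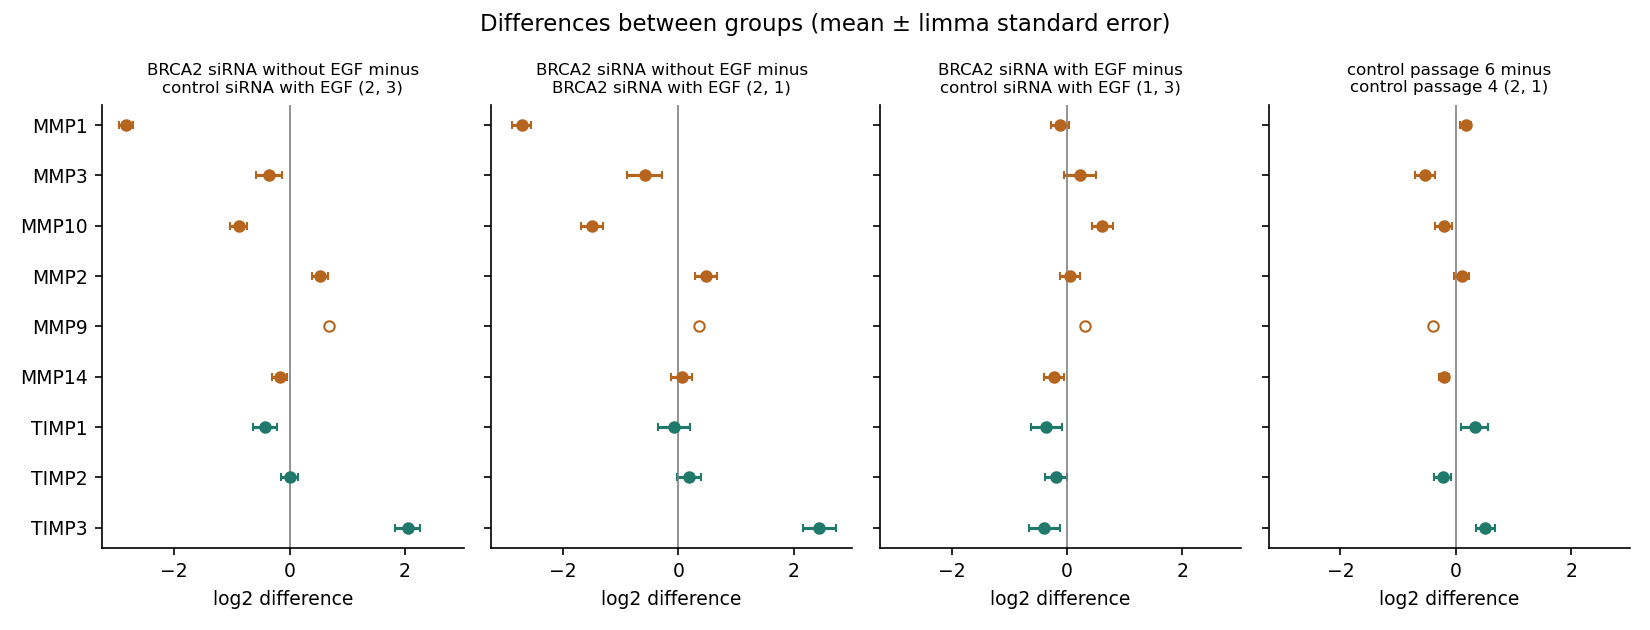
Log2 difference (horizontal axis) of the 9 genes in the 4 comparisons, with limma standard errors as bars, proteases in brown and inhibitors in green, and the open MMP9 point without a bar as it was too low to test. MMP1 and TIMP3 lie farthest from 0 in both panels with the libraries without EGF, at -2.84 and 2.05 against controls, and these panels share those libraries. The number of libraries in each group stands above each panel.

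Related genes were read in 6 lists for the comparison of cells without EGF with controls, where 0.989% of all tested genes passed. Differences are on the log2 scale, and the list calls share the dependence of those 146 genes on single libraries. Among 17 other MMP genes, 6 were tested and 0 passed, with a median difference of 0.25. The largest were MMP24, a membrane-type protease, at 0.56 and MMP13 at -0.46. Of 8 other inhibitors, 4 were tested and 0 passed in this fit, with a median of 0.38. TFPI2, a protease inhibitor of the matrix, lay at -1.74 and SPOCK1, a testican proteoglycan, at 0.81. At passage 6 alone, where 6.44% of all tested genes passed, TFPI2 was at -2.02 and SPOCK1 at 0.99, and both passed.

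Of 16 activation and surface partners, 14 were tested, MMP14 among them, and 0 passed, with a median of -0.10. PLAUR, the urokinase receptor that focuses plasmin formation at the cell surface, was at -1.02 and the integrin subunit ITGAV at 0.68. At passage 6 alone 3 of the list passed as lower, namely PLAUR, the urokinase gene PLAU and the plasminogen activator gene PLAT, and ITGAV passed as higher. The next list held 16 genes, ADAM and ADAMTS proteases and BMP1, a procollagen C-proteinase of the astacin family. Of these 14 were tested and 2 rose, the aggrecanase ADAMTS5 by 1.56 and BMP1 by 0.78, with a list median of 0.31. ADAMTS15 also passed at passage 6 alone. TIMP3 is a known inhibitor of ADAMTS5.

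The next list held genes of matrix proteins that MMPs cut. Of 18 genes 17 were tested, all 17 lay above 0 and 4 passed, with a median of 0.62 against -0.03 over all tested genes. COL1A1 rose by 1.70 and COL3A1 by 1.96 on the log2 scale, genes of fibrillar collagens that MMP1 cuts. NID1, for the basement membrane protein nidogen-1, rose by 1.30 and HSPG2, for perlecan, by 0.98. At passage 6 alone 9 passed as higher and 0 as lower.

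The list of factors known to act on MMP promoters held 14 AP-1, ETS and RUNX genes. All were tested and 2 fell, FOSL1, an AP-1 subunit, by 1.30 and the ETS factor ETV5 by 1.27, with a median of -0.04. FOSL1 was at 10.55 and 10.19 without EGF, 11.74 in the library labelled as BRCA2 siRNA with EGF, and 11.52, 11.74 and 11.76 in control P4, A and B. ETV4, another ETS factor, passed as lower at passage 6 alone, and 7 of the 14 factors lay above 0. In the comparison with the library labelled as BRCA2 siRNA with EGF, and in the comparison of that library with controls, 0 genes of all 6 lists passed.

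**Figure D5:**
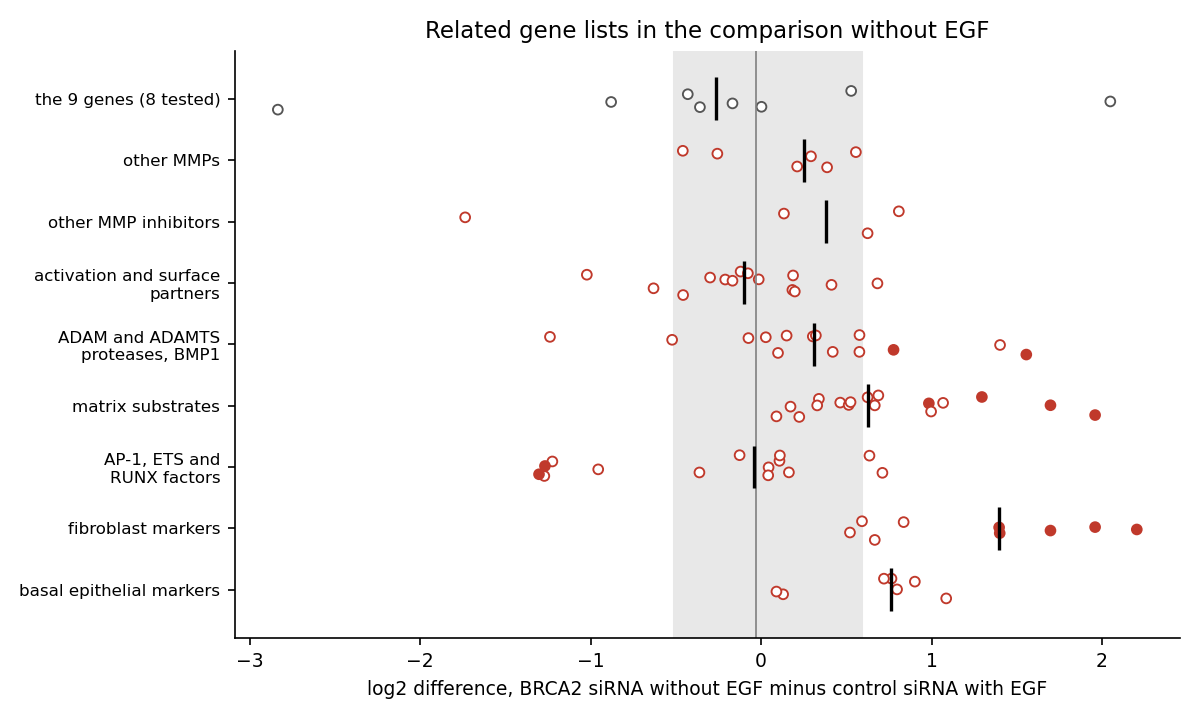
Log2 difference (horizontal axis) without EGF minus control of the 8 tested members and of related lists, with 1 point per gene, filled in the related lists where the limma adjusted p over all tested genes was below 0.05. Members are open grey points, with no test shown. Black bars are list medians, and the grey band spans the 5th to 95th percentile of all tested genes, -0.51 to 0.59. The matrix substrates all lie right of 0, and MMP1 at -2.84 and TIMP3 at 2.05 lie at opposite ends of their row.

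Between passages of the control, 1 of the other MMPs was called, MMP16, a membrane-type protease, which was higher by 1.27 at passage 6. TFPI2, PLAT, CD44, ADAM10, ADAM12, ADAM15, COL4A1 and COL7A1 were also called as higher at passage 6. Those called as lower there included SPOCK1, ITGB3, ADAMTS1, FN1, DCN, FOSB, JUND, ETS2, ETV4 and ELK1. These calls share the dependence on controls A and B given above for the 20.1%, since 0 genes passed without either.

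Cell type markers were summed on the linear scale in each library. Basal mammary epithelial markers, of which 7 of 7 passed the filter, summed to 612382 to 684346 without EGF, 417022 in the library labelled as BRCA2 siRNA with EGF and 439604 to 459212 in controls. Luminal markers passed for 3 of 6 genes, with KRT19, EPCAM and ELF5 below the filter. They summed to 3000 to 3238 without EGF, 3702 in the library labelled as BRCA2 siRNA with EGF and 4021 to 4563 in controls. The 3 did not move together, since KRT8 was at -0.15, KRT18 at -0.79 and MUC1 at 0.81 without EGF against controls. At passage 6 alone KRT18 passed as lower and MUC1 as higher. Fibroblast markers passed for 9 of 11 genes, with COL1A2 and PDGFRA below the filter and 0 genes listed at 0. They summed to 6980 to 7139 without EGF, 4387 in the library labelled as BRCA2 siRNA with EGF and 2263 to 2633 in controls. Of the 9 tested fibroblast markers 5 rose without EGF against controls (COL1A1, COL3A1, DPT, FAP and MFAP5), with a median difference of 1.40. All 9 lay above 0. Against the library labelled as BRCA2 siRNA with EGF, 7 lay above 0 and 2 below, DCN at -1.04 and LUM at -0.98, and 0 passed. Of the 7 basal markers 7 lay above 0, with a median of 0.76, and 0 passed. At passage 6 alone KRT5, KRT14, KRT17 and CDH3 passed as higher, and 6 of the 7 lay above 0, with ITGA6 at -0.11. The basal and fibroblast sums were highest in the same libraries as TIMP3 and the matrix genes, and their part in those results was not tested. COL1A1, COL1A2, COL3A1 and DCN stand on both the fibroblast and the matrix list.

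Leukocyte markers passed for 0 of 7 genes, with CD3E among those listed at 0, and summed to between 17.6 and 19.1 in every library. Endothelial markers passed for 1 gene, KDR, of 4 matched, with CDH5 listed at 0. Their sum was 570 to 746 without EGF, 356 in the library labelled as BRCA2 siRNA with EGF and 267 to 1080 in controls, so it overlapped.

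The tested genes whose profiles over the 6 libraries lay nearest to those of MMP1 and TIMP3 were found by the root mean square distance between profiles, each centred on its own mean. For MMP1 they were TMEM200A at 0.487, HMGA1 at 0.563, TFPI2 at 0.578, COL13A1 at 0.612 and SH2D2A at 0.652, against a root mean square of 1.32 for MMP1's own profile. TMEM200A was at 6.32 and 6.42 without EGF, 8.02 in the library labelled as BRCA2 siRNA with EGF, and 7.86, 8.59 and 8.34 in control P4, A and B, with a smaller gap between the media than that of MMP1. For TIMP3 they included ITGB6 at 0.106, FMO2 at 0.140, S1PR5 at 0.180 and VSIR at 0.209, against 1.04 for TIMP3's own profile. ITGB6, an integrin subunit of epithelia, was at 8.75 and 8.45 without EGF, 6.45 in the library labelled as BRCA2 siRNA with EGF, and 6.28, 6.74 and 6.86 in control P4, A and B. The TIMP3 neighbours were thus closer than those of MMP1. MMP1 had the most negative difference from controls of all tested genes, so nothing is read from that contrast in distance.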

How the data were processed

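Polyadenylated RNA of 6 hTert-HME1 libraries was sequenced after a ScriptSeq preparation, per the labels' protocols. The submitters' processing notes name TopHat2 2.0.11, the build hg19 and DESeq2 without a version. No counter, annotation or transformation is given in the sources used here. Normalised log2 values for 57820 Ensembl rows, from -1.98 to 19.93, were deposited by the authors. Of these, 25986 rows are 0 in all libraries and 0 rows in some only, as a shrinking log transform would give, in which case differences of low genes are understated. Depth is unknown, so no precision can be derived from it. All columns were matched to samples and 0 were left over. The samples' letters mark biological replicates, but letter A is given to controls of both passages, so p-values cover only the spread of these libraries, part of which may be technical.

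The 14763 genes whose values averaged at least 10 on the linear scale were fitted with limma 3.58.1 in R 4.3.3 (lmFit, eBayes with trend and robust prior, two-sided, Benjamini-Hochberg over all of them, threshold 0.05). The 3-group fit had 3 residual degrees of freedom. A fit with controls split by passage had 2 and gave the passage comparison and the passage-matched values. The 9 members, the lists and the tests were chosen with earlier results of these data known. The genes named are the members, BRCA2, list genes that passed or else the largest 2 differences of a list, and the 5 nearest profiles of MMP1 and TIMP3, of which some items are not reported here. MMP13 in its cluster and genes that passed at passage 6 alone were named beyond this rule after their values were seen. Symbols were matched for 89.9% of rows and 96.4% of tested genes. Exon lengths, overlaps and shared stretches come from GENCODE on GRCh38, another build than the authors', so no coordinates are given beyond those of the RefSeq promoters. Alternatives changed the filter, the normalisation, the prior, the replicate block, the passage split and the libraries included.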

Additional observations from a re-analysis of the deposited data

How the results depend on the processing

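The first comparison and MMP9 carry no test, so their differences were set against the spread between replicates, and the others against the threshold and their direction. Of the members' differences under all alternatives, 400 held by that measure, 18 passed where the fit reported had not, 3 no longer passed, 5 moved beyond the spread and 3 tested ones reversed. TIMP2 without EGF over control, at 0.00, took either sign, from -0.15 to 0.15. The tested ones that reversed were MMP2 for the library labelled BRCA2 siRNA with EGF over control (-0.0017 under quantile normalisation), MMP3 there (-0.13 with groups split by passage) and TIMP1 without EGF over BRCA2 siRNA with EGF (0.21 without replicate B and -0.35 without replicate A of the libraries without EGF). The causes were not tested.

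Counts of genes called, in the order of the comparisons above, were 146, 30, 0 and 2963. With no filter they were 87, 18 and 0 for the first, the second and the passage comparison. At a mean of at least 50 the first and second gave 94 and 13, and the second gave 56 with neither the trend nor the robust prior. With controls A and B averaged the counts were 37, 11 and 0. With groups split by passage the first and second gave 950 and 569. Leaving out single libraries gave 0 to 951 in the first, 0 to 2404 in the second, 0 in the third and 0 to 9849 between passages. The third count was 0 under all these alternatives.

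A minus B correlated at -0.17 between the pairs at passage 6. With 2 pairs this cannot decide whether libraries of the same letter belong together. With a replicate block the first and second counts were 6 and 0, MMP1 in the second had an adjusted p of 0.190 (limma) at -2.73, and TIMP3 between passages had 0.0499 at 0.60. The crossed pairing, added after seeing the data, gave 112 in the first and 10 in the second, so the counts depend on how the letters are paired.

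The limits are 1 library for BRCA2 siRNA with EGF, 1 control at passage 4, labels there that BRCA2 does not bear out, siRNA, medium and passage that differ together, and an unknown depth, so that low genes such as MMP9 and MMP10 have no counting interval.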
